A study of Mus musculus with 36 samples.

Results

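The 12 libraries from wild-type cortex and wild-type brainstem, out of 36 in the series, were set against each other across all genes. They were chosen by their labels as 6 of cortex and 6 of brainstem, and in each region 3 came from the wild types of an ataxin-3 transgenic line and 3 from the wild types of a hypocretin (Hcrt) knockout line. All mice were of the C57BL/6 strain, and the wild types carried neither the transgene nor the knockout allele. The other 24 libraries were 6 of wild-type hypothalamus, and 3 each of cortex, brainstem and hypothalamus from Hcrt/orexin-ataxin-3 transgenic mice, whose hypocretin neurons are ablated, and from Hcrt knockouts. Whether replicate libraries came from separate animals is not stated by the labels, and the p-values therefore cover only the spread among these samples. Polyadenylated RNA was sequenced, and a level below is in CPM, read counts scaled to library size with TMM factors, while a difference is a log2 fold change of cortex minus brainstem with its standard error (SE).

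The cerebral cortex develops from the front of the neural tube, and most of its neurons are glutamatergic pyramidal cells mixed with a smaller population of GABAergic interneurons. The brainstem joins the midbrain, pons and medulla. It holds the cranial nerve motor nuclei, the main noradrenergic and serotonergic cell groups, many glycinergic inhibitory neurons and large bundles of myelinated fibres. Transcription factors that divide the embryonic neural tube along its length, among them the Hox genes of the hindbrain, often stay on in adult neurons.

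Gene counts ran from 30846049 to 46001354 per cortex library and from 21915540 to 38251227 per brainstem library. The first dimension of a multidimensional scaling plot separated the regions and held 86.5% of the variance. Brainstem ataxin-3 line wild types 1 and 2 were rich in ribosomal RNA, with 15600 and 89500 CPM of Gm42418, a locus that collects such reads, against 481 to 650 CPM in the other 4 brainstem libraries. Brainstem ataxin-3 line wild type 3 and brainstem knockout line wild types 1 and 2 were rich in cerebellar transcripts. Their summed level of Gabra6, Pcp2, Fat2 and Cbln3 was 487, 334 and 351 CPM, against 51.4 to 80.5 CPM in the other 3, and 1 cortex library, ataxin-3 line wild type 2, had 35.3 CPM where the other cortex libraries had 0.555 to 1.27 CPM. Counts over all genes, cerebellar genes, globin and library shares are given below with and without these libraries. Of the 158 genes selected for naming, 49 have an exon that overlaps another annotated gene, 43 of these on the opposite strand, among them Ddn, Kcnh3, Hoxb5 and Mab21l2, and their levels are uncertain because the strand setting of the counting is not given in the sources used here.

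**Figure D1:**
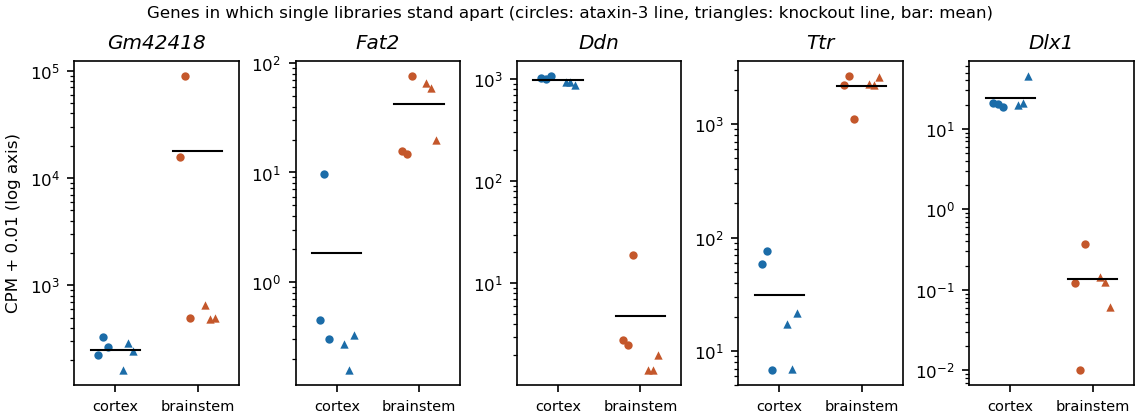
Levels of 5 genes in the 12 wild-type libraries, in CPM plus 0.01 on log axes, with cortex left of brainstem, circles for the ataxin-3 line, triangles for the knockout line and a bar for the mean of 6. In brainstem Gm42418 stands at 15600 and 89500 CPM in 2 libraries, Ddn at 18.8 CPM and Ttr at 1120 CPM in 1 library each, and Dlx1 reaches 45.3 CPM in 1 cortex library.

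The regions differed in most of the genes expressed. Of 16959 genes tested, 14032 (82.7%) differed at an edgeR adjusted p under 0.05, 6877 (40.6%) being higher in cortex and 7155 (42.2%) lower. The test against a 2-fold difference called 2034 genes (12%) higher and 1690 genes (9.97%) lower in cortex. These shares of all genes are the background for the list counts below. The filter on low counts asked for 0.283 CPM in at least 3 libraries, and 712 of the genes tested passed it through cortex alone and 826 through brainstem alone. The direction of such genes was largely set by the filter, and their number is given for the lists below. Genes at or beyond 64-fold (a log2 fold of 6) were 65 higher and 89 lower. The 6 libraries of one region lay wholly to one side of the other region's 6 for 11248 genes (66.3%), and the median log2 fold change over all genes was -0.02. Without the 2 libraries rich in ribosomal RNA the test against a 2-fold difference called 2226 genes higher and 1695 lower, and without the 4 libraries rich in cerebellar transcripts 1866 and 1636.

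The 2034 genes higher in cortex held 17.9% to 18.5% of the gene counts of a cortex library and 4.45% to 5.12% of a brainstem library. The 1690 genes lower in cortex held 3.16% to 3.36% of a cortex library and 11.4% to 12.3% of a brainstem library. These shares describe genes chosen on the same libraries and carry no test.

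**Figure D2:**
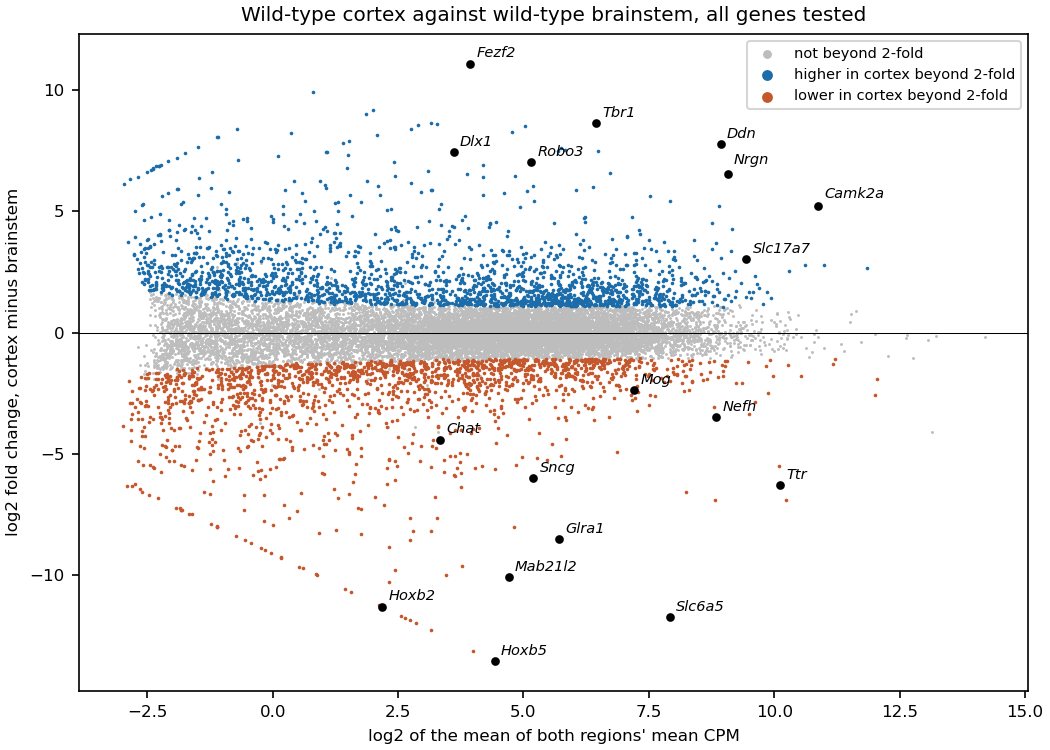
Log2 fold change of cortex minus brainstem against the log2 of the mean level of both regions in CPM, for the 16959 genes tested, with genes beyond 2-fold in blue (higher in cortex, 2034) and orange (lower in cortex, 1690). The straight lower edges at left are genes with no count in one region, such as Hoxb2, whose fitted values depend on the level in the other region.

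The same comparison was made in the 12 cortex and brainstem libraries of the mutants, which share no library with the wild types. There 13765 of 16919 genes (81.4%) differed, and 3652 (21.6%) passed the test against a 2-fold difference, 2029 (12%) higher and 1623 (9.59%) lower in cortex. Of the 3668 genes beyond 2-fold in the wild types that were tested in the mutant libraries, 3668 had the same direction and 3344 were again beyond 2-fold.

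Most transcription factors of the developing forebrain were higher in cortex, where 40.6% of all genes were higher and 12% higher beyond 2-fold. Of 26 such factors tested, 23 were higher in cortex, 19 of them beyond 2-fold, 2 were lower and 1 did not pass, with a median log2 fold change of 2.14, and 4 had passed the filter through cortex alone. Fezf2, which directs the fate of deep-layer subcortical projection neurons, ranged from 28.2 to 35.2 CPM in cortex with a median of 28.7, and from 0 to 0.0369 CPM in brainstem with a median of 0. Its 6864 cortex counts stood against 2 in brainstem, a ratio of 2940 with a 95% counting interval of 815 to 24300. Fezf2 (ENSMUSG00000021743) occupies chr14:12342094-12348189 of GRCm38, minus strand.

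Tbr1, a determinant of layer 6 and early-born neurons, ranged from 165 to 193 CPM in cortex with a median of 172, and from 0.221 to 0.933 CPM in brainstem with a median of 0.357. The difference was 8.63 (SE 0.15, edgeR adjusted p = 5.4e-16). The lowest cortex library lay far above the highest brainstem library. The highest brainstem value of Tbr1 was in ataxin-3 line wild type 3, the library with the highest brainstem level of Ddn as well.

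Other forebrain factors covered a wide range of differences. Emx1 of the dorsal telencephalon had a difference of 6.65, Lhx2 of 4.20, Bcl11b (Ctip2) of 3.00 and Bcl11a of 2.55, each past the threshold with no overlap. Bcl11b, for example, ranged from 67.2 to 80.2 CPM in cortex and from 8.77 to 11.1 CPM in brainstem. Nr2e1 (Tlx), an orphan nuclear receptor of forebrain progenitors and not a member of the list, had a difference of 8.56. It lay at 14.1 to 15.5 CPM in cortex and 0 to 0.11 CPM in brainstem, there below the 0.283 CPM of the filter.

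Neurod1, a neuronal differentiation factor also used by cerebellar granule cells, was the factor that did not pass. It ranged from 12 to 18.6 CPM in cortex and from 8.38 to 63.6 CPM in brainstem, and its highest 3 brainstem values were in the 3 libraries rich in cerebellar transcripts. The difference was -1.07 (SE 0.55, edgeR adjusted p = 0.095), and without the 4 libraries rich in cerebellar transcripts it was 0.50 with an edgeR adjusted p of 0.00034, so the sign depended on those libraries.

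Markers of cortical GABAergic interneurons were split, where 40.6% of all genes were higher in cortex, 12% beyond 2-fold, and 42.2% lower. Of 20 tested, 15 were higher in cortex, 10 of them beyond 2-fold, and 4 were lower, with a median of 2.73, and 5 of the 20 had passed the filter through cortex alone. The Dlx homeobox genes, which specify interneurons born in the ventral telencephalon, were at trace level in brainstem. Dlx1 ranged from 18.9 to 45.3 CPM in cortex and from 0 to 0.357 CPM in brainstem. The difference was 7.44 (SE 0.44, edgeR adjusted p = 5.7e-08). Apart from 0.357 CPM in ataxin-3 line wild type 3, its brainstem values lay below the 0.283 CPM of the filter. Dlx1 was therefore tested through cortex alone. The cortex library with 45.3 CPM of Dlx1 was knockout line wild type 3, and the other 5 lay at 18.9 to 20.9 CPM. Dlx6os1, an antisense transcript of the same family locus, had a difference of 8.65, and Dlx5 and Dlx2 had 7.45 and 7.81.

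Lhx6, a factor of interneurons from the medial ganglionic eminence, ranged from 16.4 to 18.6 CPM in cortex and from 0.178 to 0.412 CPM in brainstem, a difference of 5.87 (SE 0.11). The peptides Vip, Npy and Cck, which mark interneuron classes, differed by 3.20, 3.23 and 3.87. Cort (cortistatin) ranged from 3.46 to 4.38 CPM in cortex and from 0 to 0.0823 CPM in brainstem. Sst was higher in cortex by 0.89. Pvalb, the calcium-binding protein of fast-spiking cells, was lower in cortex, with a difference of -2.21. It ranged from 40.6 to 45.9 CPM in cortex and from 146 to 243 CPM in brainstem. The brainstem libraries rich in cerebellar transcripts held its highest values, 243, 234 and 224 CPM, against 154, 146 and 189 CPM in the others.

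Postsynaptic and plasticity genes of excitatory synapses were higher in cortex. All 20 tested were beyond 2-fold and free of overlap, where 12% of all genes were higher beyond 2-fold and 33.7% higher without overlap. The 20 were beyond 2-fold also without the libraries rich in ribosomal RNA or in cerebellar transcripts. Their median log2 fold change was 2.8, and their summed level was 11990 to 13140 CPM in cortex and 1700 to 2054 CPM in brainstem. Camk2a, the calcium-dependent kinase of the postsynaptic density, ranged from 3370 to 3890 CPM in cortex with a median of 3620, and from 82.5 to 135 CPM in brainstem with a median of 96.1. The difference was 5.21 (SE 0.10, edgeR adjusted p = 9.9e-16).

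Nrgn (neurogranin, which binds calmodulin in spines) ranged from 1000 to 1120 CPM in cortex and from 8.24 to 15 CPM in brainstem, a difference of 6.54 (SE 0.13). Ddn (dendrin) ranged from 881 to 1070 CPM in cortex and from 1.39 to 18.8 CPM in brainstem, a difference of 7.79 (SE 0.62, edgeR adjusted p = 9.9e-07). The value of 18.8 CPM was again that of brainstem ataxin-3 line wild type 3, and the other 5 were at or below 2.77 CPM. Icam5 (telencephalin), a dendritic adhesion molecule, differed by 6.00, Wipf3 by 3.25, Homer1 by 2.62 and Hpca (hippocalcin) by 2.58.

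Of 21 markers of cortical excitatory neurons, 18 were higher in cortex, 17 of them beyond 2-fold, and 2 were lower, with a median of 3.04. Through cortex alone 2 of the 21 had passed the filter. The shares over all genes were 40.6% higher, 12% higher beyond 2-fold, and 42.2% lower. Stx1a, a syntaxin of the release machinery, ranged from 262 to 288 CPM in cortex and from 9.12 to 11.8 CPM in brainstem, and Kcnv1, a silent potassium channel subunit, from 120 to 138 CPM in cortex and from 1.66 to 2.83 CPM in brainstem. The channel genes Kcnh3 and Kcnj4 had differences of 7.50 and 7.48. Robo3, a receptor known for guiding axons across the midline of the hindbrain, was also among the 12 largest, at 64.6 to 77.3 CPM in cortex and 0.408 to 0.92 CPM in brainstem, a difference of 7.04 (SE 0.10, edgeR adjusted p = 8.9e-21). Kcnh4, another potassium channel gene, had 34.4 to 38.9 CPM in cortex and 0.204 to 0.369 CPM in brainstem.

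**Figure D3:**
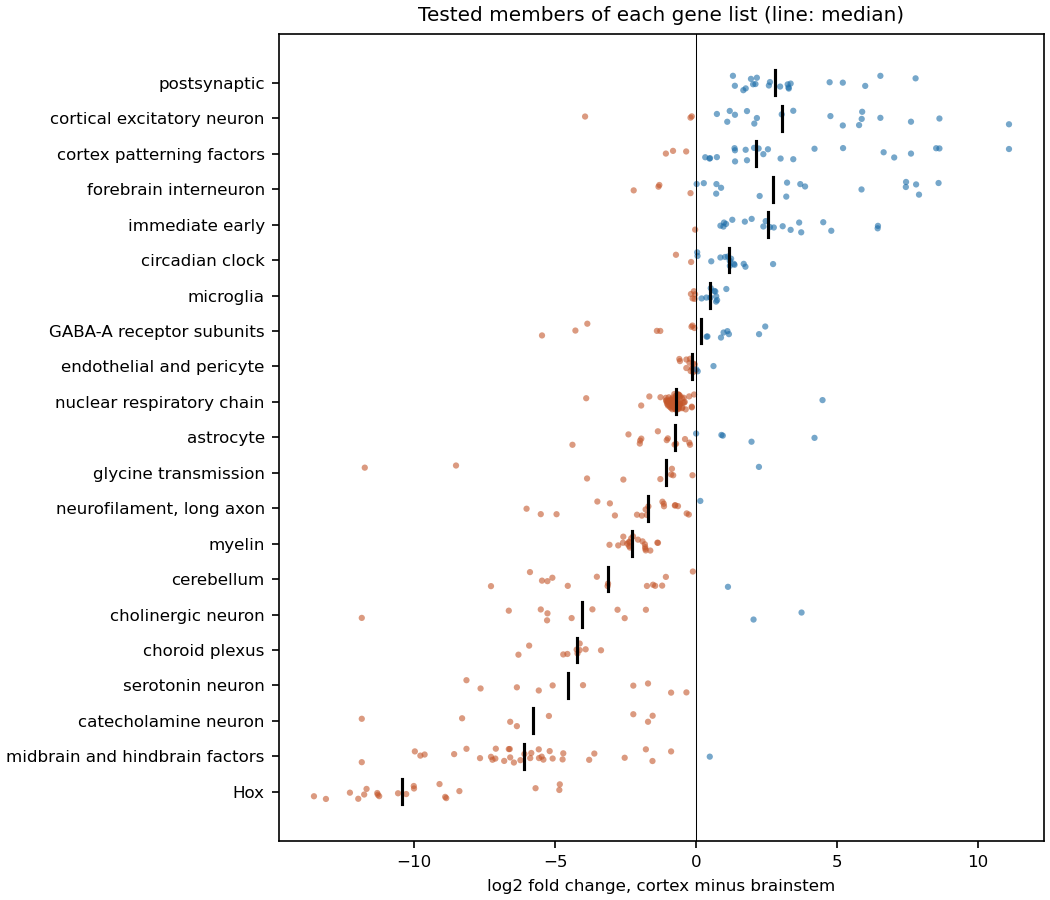
Log2 fold changes of cortex minus brainstem for the tested members of 21 gene lists, 1 point per gene, blue where above 0 and orange where below, with the median as a line. The medians run from 3.04 for cortical excitatory neuron markers to -10.43 for Hox genes, against -0.02 over all genes.

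The Hox genes were close to absent from cortex. The share lower in cortex beyond 2-fold was 9.97% over all genes. Of 38 in the tables, 20 had enough counts to be tested, and these 20 were all lower in cortex beyond 2-fold, but they had passed the filter on low counts through brainstem alone. Without the 2 libraries rich in ribosomal RNA 18 were beyond 2-fold. In cortex 30 of the 38 had no count in any of the 6 libraries, and the remaining 8 had few. The summed Hox level was 0.0760 to 0.171 CPM in cortex and 175.6 to 248.4 CPM in brainstem. The median log2 fold change was -10.43, and -9.36 with genes at 0 in cortex set at 3 counts over the 6 libraries together, a floor used for every such bound here.

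Hoxb5, a factor of the caudal hindbrain, had no count in cortex and 34.2 to 51.8 CPM in brainstem with a median of 43.2, so it was at least 3230-fold lower in cortex. Hoxb5 occupies chr11:96303336-96306121 of GRCm38, plus strand. Hoxa5 had no count in cortex and 26.5 to 36.9 CPM in brainstem, at least 2390-fold lower. Hoxc4, Hoxb3 and Hoxa4 were at least 1340-fold, 1090-fold and 926-fold lower. Hoxd3, with 4 counts in cortex against 4204 in brainstem, had a difference of -10.01 (SE 0.17, edgeR adjusted p = 7.6e-20). Like the other Hox genes tested, it was tested through brainstem alone, so its direction was fixed.

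Hox genes are numbered along each cluster, and low numbers act toward the front of the hindbrain and high numbers toward the tail. All 22 genes of paralogue groups 1 to 8 had counts in brainstem, although Hoxb1 had 1 and Hoxc8 2. Of the 16 genes of groups 9 to 13, 12 had no count in brainstem, and the highest mean level among them was 0.177 CPM, that of Hoxd13.

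The spread among brainstem libraries differed by paralogue group. For the 13 tested genes of groups 1 to 5, the coefficient of variation over the 6 brainstem libraries was 6.91% to 28.3% with a median of 10.6%. For the 7 tested genes of groups 6 to 8 it was 21.9% to 49.0% with a median of 33.2%. Hoxb8 ranged from 4.54 CPM in knockout line wild type 1 to 18.3 CPM in knockout line wild type 2, and Hoxb6 and Hoxb7 were lowest and highest in the same 2 libraries. The part of dissection in these spreads was not tested.

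**Figure D4:**
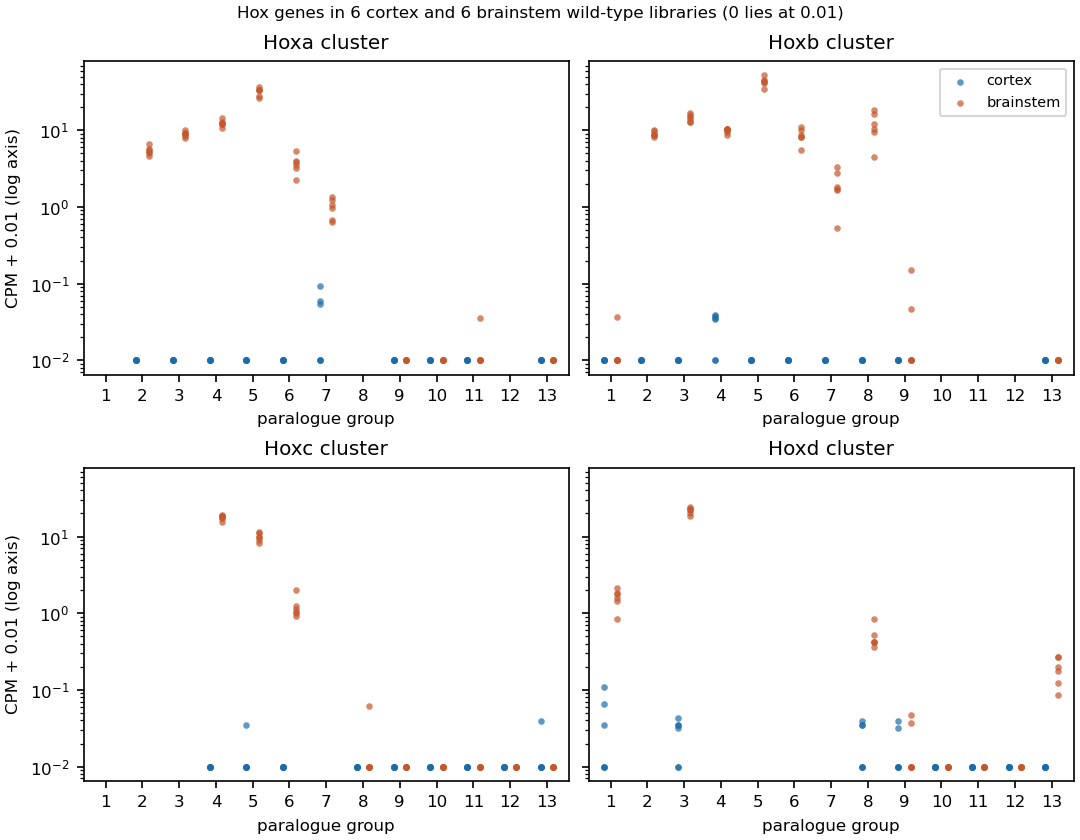
Levels of Hox genes of 4 clusters by paralogue group, in CPM plus 0.01 on a log axis, with 1 point per library for 6 cortex (blue) and 6 brainstem (orange) libraries and a value of 0 drawn at 0.01. Brainstem points fill groups 1 to 8 and lie mostly at 0 from group 9 on, apart from Hoxd13, while most cortex points lie at 0.

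Most other midbrain and hindbrain factors were also lower in cortex, where 42.2% of all genes were lower and 9.97% lower beyond 2-fold. Of 35 tested, 34 were lower in cortex, 33 beyond 2-fold, and 1 was higher, with a median of -6.09. The list has 40 members, and 27 of the 35 tested had passed the filter through brainstem alone. Mab21l2, not a member of this list, ranged from 0.0244 to 0.0666 CPM in cortex and from 50.9 to 53.9 CPM in brainstem, a difference of -10.09 (SE 0.10, edgeR adjusted p = 6.1e-23). Its cortex values lay below the 0.283 CPM of the filter, so it was tested through brainstem alone. Pax8 had 2 counts in cortex against 2103 in brainstem, a ratio of brainstem over cortex of 1230 with a counting interval of 339 to 10100. Irx2, Lbx1 (a factor of dorsal hindbrain interneurons) and Pax2 differed by -9.63, -8.58 and -6.81.

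The transporters that load glutamate into vesicles differed in opposite directions. Slc17a7 (VGLUT1), the vesicular glutamate transporter of cortical pyramidal cells, ranged from 1180 to 1300 CPM in cortex with a median of 1240, and from 127 to 173 CPM in brainstem with a median of 148. The difference was 3.04 (SE 0.07, edgeR adjusted p = 4.2e-17). Slc17a6 (VGLUT2), its counterpart in subcortical neurons, ranged from 24.8 to 31.5 CPM in cortex and from 250 to 317 CPM in brainstem, a difference of -3.26 (SE 0.05, edgeR adjusted p = 2.6e-20). Levels of the pair per kilobase of exon put VGLUT1 at 97.7% of their sum in cortex and 35.3% in brainstem. Slc1a2, the glial glutamate uptake carrier, was higher in cortex by 0.90.

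The 250 bases before the annotated starts of 4 genes are shown because these are the vesicular pair that moved in opposite directions and a pair of transcription factors each at or near 0 in a region. They come from RefSeq on GRCm38.p6, at chr7:45163671-45163920 on the plus strand for Slc17a7, chr7:51621580-51621829 on the plus strand for Slc17a6, chr14:12345866-12346115 on the minus strand for Fezf2 and chr6:52204588-52204837 on the minus strand for Hoxa5. Slc17a6 has 2 listed starts and the upstream one is shown. The Fezf2 window lies inside the gene span given above, because the start RefSeq lists is downstream of the 5′ end of that span. Capitals mark the GC box letters GGGCGG and the E-box CAGCTG, read on both strands, which overlap nowhere with each other here, although 2 of the GGGCGG matches of Slc17a7 overlap by 1 base.
Slc17a7: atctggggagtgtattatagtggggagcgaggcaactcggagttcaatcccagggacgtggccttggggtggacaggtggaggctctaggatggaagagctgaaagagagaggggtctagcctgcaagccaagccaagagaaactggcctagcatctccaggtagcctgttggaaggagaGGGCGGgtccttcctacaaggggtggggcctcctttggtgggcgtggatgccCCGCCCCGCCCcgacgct
Slc17a6: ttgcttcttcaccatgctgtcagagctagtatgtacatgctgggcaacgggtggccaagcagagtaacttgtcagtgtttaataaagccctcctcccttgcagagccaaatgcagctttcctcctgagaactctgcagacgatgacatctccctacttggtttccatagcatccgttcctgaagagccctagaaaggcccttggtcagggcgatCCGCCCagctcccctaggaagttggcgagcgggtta
Fezf2: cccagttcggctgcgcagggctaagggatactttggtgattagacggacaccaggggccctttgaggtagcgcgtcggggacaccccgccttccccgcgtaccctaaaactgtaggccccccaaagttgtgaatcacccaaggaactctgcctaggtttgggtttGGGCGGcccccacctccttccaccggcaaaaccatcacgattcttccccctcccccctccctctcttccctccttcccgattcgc
Hoxa5: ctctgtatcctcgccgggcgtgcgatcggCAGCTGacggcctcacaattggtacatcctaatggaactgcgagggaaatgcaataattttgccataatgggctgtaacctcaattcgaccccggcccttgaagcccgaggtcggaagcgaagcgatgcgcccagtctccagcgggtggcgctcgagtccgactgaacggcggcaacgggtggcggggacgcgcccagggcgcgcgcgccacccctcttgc

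Slc17a7 held 3 matches to GGGCGG and 9 CG pairs in this window, Slc17a6 1 match and 7 CG pairs, Fezf2 1 match and 14 CG pairs, and Hoxa5 1 match to CAGCTG and 28 CG pairs. None of the 4 held TATAAA. Across genes with 1 listed start, GGGCGG stood in 51.4% of 1038 promoters of genes higher in cortex beyond 2-fold and 52.2% of 1001 promoters of genes lower in cortex, against 57.9% of the 10036 promoters of all genes tested. CAGCTG stood in 14.9% and 16.3%, against 12.5% of all, TATAAA in 8.96% and 9.09%, against 6.77%, and CCGGAA, the core of ETS factor sites, in 11.8% and 8.79%, against 20.6%. The median number of CG pairs was 13 and 11, against 15. These 4 motifs are among 11 searched, and the shares describe letters in a window and are not sites. As a check of the sets it is void, since only 51% of the genes higher in cortex, 59.2% of those lower and 59.2% of all had a promoter with 1 listed start.

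Genes of glycine transmission were mostly lower in cortex, where 42.2% of all genes were lower and 9.97% lower beyond 2-fold. Of 10 genes tested, 9 were lower in cortex, 5 beyond 2-fold, and 1 was higher, with a median of -1.08, and 3 of the 10 had passed the filter through brainstem alone. Slc6a5 (GlyT2), the neuronal glycine transporter, ranged from 0.0444 to 0.431 CPM in cortex with a median of 0.0881, and from 379 to 543 CPM in brainstem with a median of 498. The difference was -11.76 (SE 0.23, edgeR adjusted p = 6.4e-13). Apart from 0.431 CPM in ataxin-3 line wild type 2, its cortex values lay below the 0.283 CPM of the filter. Slc6a5 was therefore tested through brainstem alone. Glra1, the adult glycine receptor alpha subunit, ranged from 0.176 to 0.366 CPM in cortex and from 83.0 to 119 CPM in brainstem, a difference of -8.52 (SE 0.12, edgeR adjusted p = 3.7e-20). Its relative Glra2 differed by -0.86, so per kilobase Glra2 was 96.2% of the pair in cortex and 11% in brainstem. Slc6a9 (GlyT1), mainly of glia, differed by -2.58, and Glrb, the shared beta subunit, by -0.89.

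Of 7 genes of GABA synthesis and transport, 1 was higher and 4 were lower in cortex, where 40.6% and 42.2% of all genes were. Slc32a1, the vesicular carrier used for both GABA and glycine, ranged from 65.0 to 75.3 CPM in cortex and from 149 to 185 CPM in brainstem, a difference of -1.27 (SE 0.05). The enzymes that make GABA went in opposite directions, with Gad1 higher in cortex by 0.53 (SE 0.08, edgeR adjusted p = 6.3e-05) and Gad2 lower, with a difference of -0.49 (SE 0.05, edgeR adjusted p = 1.5e-08). Gad1 was 481 CPM in cortex knockout line wild type 3, the library with high Dlx1, and 356 to 372 CPM in the other 5. Slc6a11 (GAT3), an astrocytic GABA carrier, differed by -1.94.

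Among 16 GABA-A receptor subunits, 8 were higher and 6 lower in cortex, with 3 and 5 beyond 2-fold, where 40.6% of all genes were higher and 42.2% lower. Of the 16, 2 had passed the filter through brainstem alone. Gabra4 ranged from 131 to 143 CPM in cortex and from 26.4 to 32.3 CPM in brainstem, a difference of 2.23 (SE 0.05). Gabrq and Gabre, subunits of monoaminergic and hypothalamic neurons, differed by -3.86 and -4.28, at 1.03 to 1.51 and 0.166 to 0.263 CPM in cortex against 16.3 to 21.4 and 3.18 to 4.98 CPM in brainstem. The cortex values of Gabre lay below the 0.283 CPM of the filter. Gabra6, a subunit of cerebellar granule cells and 1 of the 4 genes by which libraries rich in cerebellar transcripts were recognised, lay at 0 to 7.75 CPM in cortex and 11.6 to 136 CPM in brainstem. Its difference was -5.47, and -8.86 without those 4 libraries. Gabra5 did not pass, with a difference of -0.13 (SE 0.07, edgeR adjusted p = 0.099).

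Of 18 ionotropic glutamate receptor subunits, 10 were higher in cortex, 6 beyond 2-fold, and 6 were lower, 2 beyond 2-fold, where 12% and 9.97% of all genes were beyond 2-fold. Of the 18, 1 had passed the filter through brainstem alone. Grin2b, an NMDA receptor subunit, ranged from 559 to 647 CPM in cortex and from 49.3 to 84.5 CPM in brainstem, a difference of 3.16 (SE 0.09). Gria2, the AMPA subunit that blocks calcium entry, ranged from 803 to 889 CPM in cortex and from 139 to 172 CPM in brainstem, a difference of 2.44 (SE 0.05), while Gria4 differed by -0.71. Per kilobase Gria2 was 68.8% of its sum with Gria4 in cortex and 20.0% in brainstem. Grin1, the obligatory NMDA subunit, differed by 1.13.

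**Figure D5:**
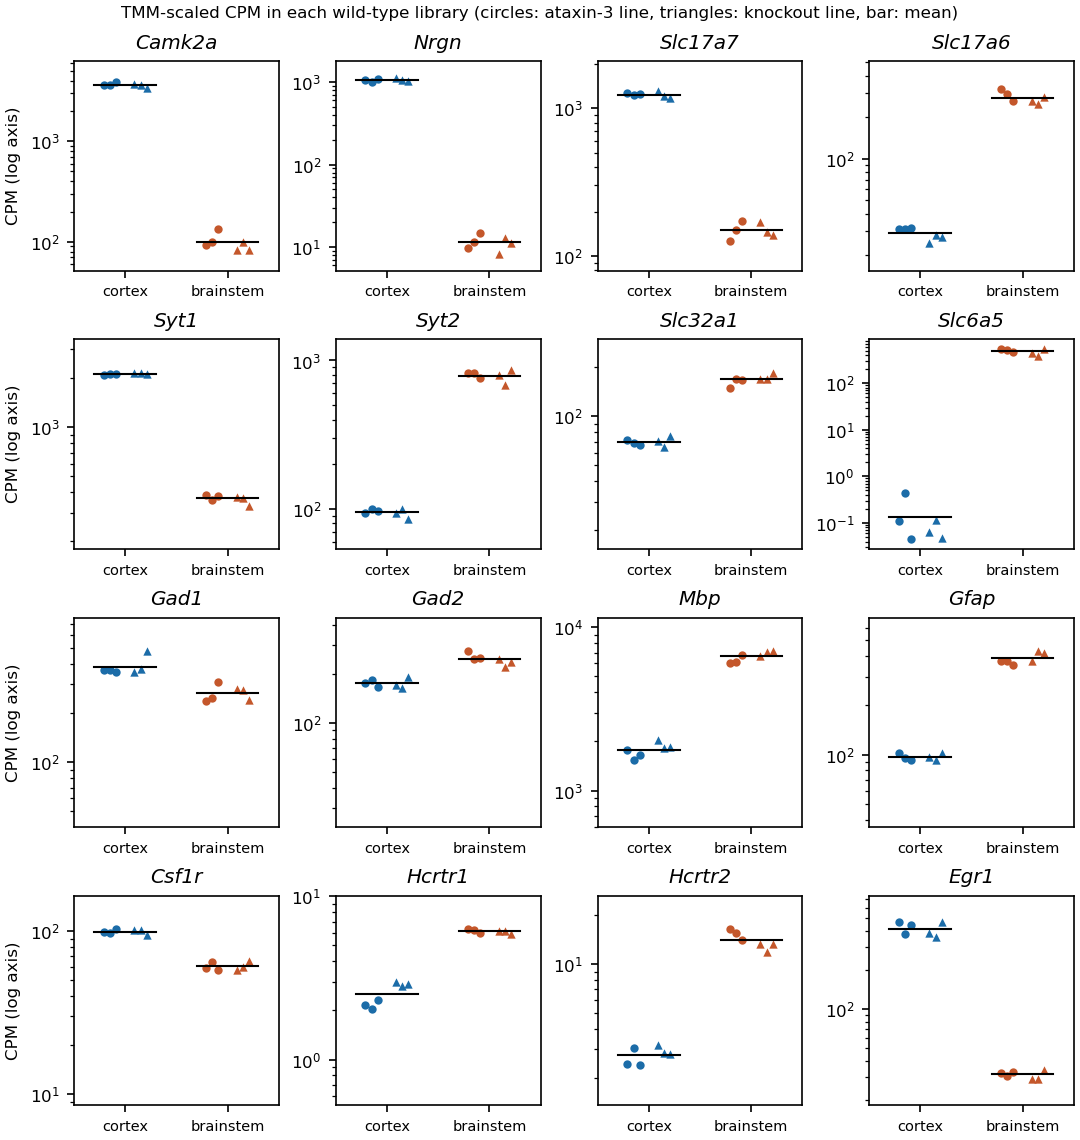
Levels of 16 genes in the 12 wild-type libraries, in CPM on log axes, with cortex (blue) left of brainstem (orange), circles for the ataxin-3 line, triangles for the knockout line and a bar for the mean of 6. Slc17a7 and Slc17a6, and Syt1 and Syt2, change places between regions. In none of the 16 genes do the regions overlap, and of all genes tested 66.3% do not.

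A list of related genes held 30 genes, of which 16 were higher and 13 lower in cortex. Only the 12 pairs of it with both members named were counted as pairs, and the rest were left out. Among these 12, 8 pairs had 1 member higher and the other lower in cortex, and in 6 pairs both were beyond 2-fold. The pairs were picked as known pairs of related genes, with earlier results of these data known. Syt1, the fast calcium sensor of forebrain terminals, ranged from 2090 to 2160 CPM in cortex and from 330 to 384 CPM in brainstem, a difference of 2.54 (SE 0.04, edgeR adjusted p = 7.8e-20). Syt2, the sensor of fast hindbrain synapses, ranged from 86.2 to 99.8 CPM in cortex and from 684 to 867 CPM in brainstem, a difference of -3.06 (SE 0.06, edgeR adjusted p = 1.5e-19). Per kilobase Syt1 was 95.3% of the pair in cortex and 29.7% in brainstem.

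Vamp2 differed by 1.16 and Vamp1 by -2.88, Sv2b by 1.52 and Sv2c by -3.27, Cplx2 by 1.67 and Cplx1 by -1.15, and Hpca by 2.58 and Hpcal1 by -1.97. These genes encode proteins of vesicle fusion and, in the last pair, neuronal calcium sensors. Camk2a and Camk2d were opposite at 5.21 and -0.45, the second within 2-fold. Of the pairs not opposite, Nptx1 and Nptx2 (1.34 and 2.53), Atp2b1 and Atp2b2 (2.23 and 0.93) and Grin2a and Grin2c (0.98 and 0.42) were higher in cortex in both members, and Glra2 and Glra1 lower in both.

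Neurofilament and long-axon genes were lower in cortex in 19 of 20 cases, 14 beyond 2-fold, with a median of -1.72. Over all genes 42.2% were lower and 9.97% lower beyond 2-fold. Sncg (gamma-synuclein) ranged from 0.988 to 1.2 CPM in cortex and from 60.4 to 84.3 CPM in brainstem, a difference of -6.02. Nefh, the heavy neurofilament of thick myelinated axons, ranged from 70.5 to 79.6 CPM in cortex and from 745 to 961 CPM in brainstem, a difference of -3.50 (SE 0.06, edgeR adjusted p = 1.1e-19). Prph (peripherin), an intermediate filament of neurons with peripheral axons, ranged from 0.583 to 1.02 CPM in cortex and from 28.8 to 42.5 CPM in brainstem. Hcn2, a channel opened by hyperpolarisation, differed by -1.75.

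Most genes of monoaminergic and cholinergic neurons were lower in cortex, where 42.2% of all genes were lower and 9.97% lower beyond 2-fold. Of 10 catecholamine genes 8 were tested, and these 8 were lower, 7 beyond 2-fold, as were all 10 serotonin genes, 8 beyond 2-fold. In each list 5 genes had passed the filter through brainstem alone, so that their direction was fixed by it. Without the libraries rich in ribosomal RNA, and likewise without those rich in cerebellar transcripts, 7 of 9 catecholamine genes were lower. Dbh, which makes noradrenaline, ranged from 0.194 to 0.380 CPM in cortex and from 7.76 to 12 CPM in brainstem, a difference of -5.22 (SE 0.16). Slc6a2, the noradrenaline transporter, had 4 counts in cortex and 4.58 to 7.97 CPM in brainstem. In bulk tissue fewer cells of a type and less RNA per cell cannot be told apart, here and for each cell type below.

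Slc6a4, the serotonin transporter, ranged from 0 to 0.111 CPM in cortex and from 8.89 to 14.7 CPM in brainstem. The difference was -7.65 (SE 0.23, edgeR adjusted p = 4.6e-15). Its cortex values lay below the 0.283 CPM of the filter, so it was tested through brainstem alone and its direction was fixed. Tph2, which makes serotonin in neurons, ranged from 1.05 to 1.67 CPM in cortex and from 16.2 to 27.0 CPM in brainstem. Ddc, the decarboxylase common to both pathways, and Fev, a serotonergic factor, differed by -2.23 and -5.58. Fev, at 0 to 0.0444 CPM in cortex, was likewise tested through brainstem alone. The lowest brainstem values of Slc6a4 and Ddc were those of ataxin-3 line wild type 3.

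Of 12 cholinergic neuron genes, 10 were lower in cortex and 2 higher, all beyond 2-fold, and 3 had passed the filter through brainstem alone. Beyond 2-fold 9.97% of all genes were lower and 12% higher. Chat, which makes acetylcholine, ranged from 0.749 to 1.11 CPM in cortex and from 16.3 to 21.3 CPM in brainstem, a difference of -4.42 (SE 0.10, edgeR adjusted p = 3.1e-18). Calca, the calcitonin and CGRP gene of motor neurons, differed by -5.29 and Ache, which breaks acetylcholine down, by -1.78.

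Receptors for these transmitters were counted as well, where 40.6% of all genes were higher and 42.2% lower. Of 17 receptors for noradrenaline, dopamine, histamine, adenosine and hypocretin, 11 were higher in cortex, 6 beyond 2-fold, and 5 were lower, 4 beyond 2-fold. Drd1, a dopamine receptor, ranged from 15.7 to 24.9 CPM in cortex and from 0.372 to 0.869 CPM in brainstem, a difference of 5.08 (SE 0.16). Adrb1, Adra1d and the histamine autoreceptor Hrh3 were higher by 2.78, 2.41 and 1.95. Of 12 serotonin receptors 5 were higher, near the share of all genes, and 7 lower. Beyond 2-fold 4 were higher and 5 lower, where 12% and 9.97% of all genes were. The higher ones included Htr2a, at 23 to 26 CPM in cortex and 8.89 to 13.4 CPM in brainstem. Htr2c, with a difference of -2.60, lay at 19.1 to 33.9 CPM in cortex and 141 to 186 CPM in brainstem.

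The hypocretin receptors were lower in cortex. Hcrtr1 had 2.16, 2.03 and 2.31 CPM in the ataxin-3 line and 3.00, 2.81 and 2.92 CPM in the knockout line in cortex, against 6.31, 6.23 and 5.95 CPM and 6.12, 6.09 and 5.90 CPM in brainstem. The difference was -1.27 (SE 0.09, edgeR adjusted p = 1.1e-10). In cortex the lines did not overlap, and the region by line difference was -0.45 with an edgeR adjusted p of 0.60. Hcrtr2 ranged from 2.40 to 3.20 CPM in cortex with a median of 2.82, and from 11.9 to 16.4 CPM in brainstem with a median of 13.7, a difference of -2.33 (SE 0.09, edgeR adjusted p = 8.7e-15).

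The peptide genes themselves were at trace level in both regions. Hcrt had 38 counts in cortex, 30 of them in knockout line wild type 2, and 18 in brainstem, and was not tested. Qrfp, a related peptide, had 1 count in cortex and 3 in brainstem, and was not tested. Pmch, of neighbouring hypothalamic neurons, ranged from 0.0888 to 1.70 CPM in cortex and from 0.409 to 1.33 CPM in brainstem, a difference of -1.01 (SE 0.73, edgeR adjusted p = 0.22). Its highest cortex value was in the same knockout line wild type 2, and without that library the difference was -2.50 with an edgeR adjusted p of 1.3e-06.

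Immediate early genes, which neurons switch on with activity, were higher in cortex in 19 of 20 cases, 15 beyond 2-fold, with a median of 2.55. Of all genes 40.6% were higher, and 12% higher beyond 2-fold. Of the 20, 1 had passed the filter through cortex alone. Egr1 ranged from 361 to 468 CPM in cortex and from 29.2 to 34.3 CPM in brainstem, a difference of 3.73 (SE 0.07, edgeR adjusted p = 1.1e-16). Egr3 ranged from 45.1 to 67.1 CPM in cortex and from 0.358 to 0.823 CPM in brainstem, a difference of 6.45 (SE 0.12). Arc and Npas4 differed by 3.35 and 4.51, whereas Fos differed by 0.97 within 2-fold and Jun by -0.03 without passing (edgeR adjusted p = 0.72). Arc and Homer1 are also in the postsynaptic list.

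Circadian clock genes were higher in cortex in 12 of 16 cases, 9 beyond 2-fold, and lower in 2, with a median of 1.16. Of all genes 40.6% were higher, 12% higher beyond 2-fold, and 42.2% lower. Npas2, a partner of Bmal1 in forebrain, ranged from 42.8 to 51.4 CPM in cortex and from 6.46 to 9.04 CPM in brainstem, a difference of 2.73 (SE 0.06). Per1 and Per2 were higher by 1.69 and 1.75. The time of dissection was not analysed here, and its part in these differences was not tested.

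Genes of myelinating oligodendrocytes were lower in cortex in all 20 of 20 cases, all beyond 2-fold and without overlap, with a median of -2.27. Of all genes 9.97% were lower beyond 2-fold and 32.6% lower without overlap. The summed level of the 20 was 4045 to 5101 CPM in cortex and 19070 to 20430 CPM in brainstem. Mbp, a main protein of central myelin, ranged from 1540 to 2030 CPM in cortex with a median of 1800, and from 6040 to 7170 CPM in brainstem with a median of 6690. The difference was -1.90 (SE 0.05, edgeR adjusted p = 3.0e-17). Mog, Mag and Cnp, all myelin proteins, differed by -2.38, -2.06 and -1.80, and Gjb1, an oligodendrocyte connexin, by -3.07. Trf (transferrin) ranged from 6.67 to 8 CPM in cortex and from 46.7 to 53.0 CPM in brainstem.

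Of 11 genes of oligodendrocyte precursors and early stages, 7 were lower in cortex, 6 beyond 2-fold, and 4 were higher within 2-fold. Of all genes 42.2% were lower, 9.97% lower beyond 2-fold, and 40.6% higher. Olig1 and Olig2, factors of the whole lineage, differed by -1.45 and -1.21, and Enpp6, of newly formed oligodendrocytes, by -2.31.

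Astrocyte genes did not move together. The shares over all genes were 42.2% lower and 40.6% higher, with 9.97% and 12% beyond 2-fold. Of 18, 13 were lower in cortex, 6 beyond 2-fold, and 4 were higher, 2 beyond 2-fold, with a median of -0.74. Agt (angiotensinogen) ranged from 3.83 to 6.74 CPM in cortex and from 98.4 to 126 CPM in brainstem, a difference of -4.39 (SE 0.10, edgeR adjusted p = 1.3e-14). Gfap, the astrocyte filament, ranged from 93.0 to 102 CPM in cortex and from 352 to 432 CPM in brainstem, and differed by -2, close to the -1.98 of the water channel Aqp4. Mfge8 was higher in cortex by 1.97, at 101 to 136 CPM against 28.5 to 33.4 CPM in brainstem.

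Microglial genes were modestly higher, 10 of 15 passing the threshold in that direction and 1 in the other, none beyond 2-fold, with a median of 0.51. Csf1r, the receptor microglia need to survive, ranged from 94.7 to 103 CPM in cortex and from 57.4 to 65.2 CPM in brainstem, a difference of 0.71 (SE 0.04, edgeR adjusted p = 7.6e-12). P2ry12 and Fcrls were higher by 0.71 and 1.07. Of 16 endothelial and pericyte genes, 9 were lower and 1 higher, none beyond 2-fold. Of all genes 40.6% were higher and 42.2% lower.

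Choroid plexus genes were lower in cortex, where 9.97% of all genes were lower beyond 2-fold. All 10 choroid plexus genes were lower in cortex beyond 2-fold, with a median of -4.22 and a summed level of 14.4 to 98.8 CPM in cortex and 1239 to 3000 CPM in brainstem. Ttr (transthyretin), the main product of choroid plexus, ranged from 6.73 to 76.4 CPM in cortex and from 1120 to 2660 CPM in brainstem, a difference of -6.30 (SE 0.73, edgeR adjusted p = 2.0e-05). Folr1 and the channel gene Kcnj13 differed by -4.57 and -3.92, and Otx2 by -4.71. The share of choroid plexus in each dissection was not tested. Foxj1, a factor of ciliated ependyma, differed by -2.48.

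Cerebellar genes were lower in cortex in 12 of 16 cases, 11 beyond 2-fold, and higher in 1, with a median of -3.13, and the median was -2.12 with 9 lower beyond 2-fold without the 4 libraries rich in cerebellar transcripts. Of the 16, 4 had passed the filter through brainstem alone. Over all genes 42.2% were lower, 9.97% lower beyond 2-fold, and 40.6% higher. The list holds the 4 genes by which those libraries were recognised, so the values without them were partly set by that choice. Pcp2, of Purkinje cells, ranged from 0 to 2.23 CPM in cortex and from 2.14 to 55.6 CPM in brainstem, so the regions overlapped, with a difference of -5.89. Without the 4 libraries it was -7.52, but Pcp2 is 1 of the genes by which they were recognised. Zic1 and Cbln1, of granule cells, differed by -3.12 and -3.52 and En2 by -3.61, and each had its highest brainstem value in ataxin-3 line wild type 3. Without the 4 libraries these differences were -2.79, -3.07 and -2.99. Haemoglobin genes were also lower, Hbb-bs at 31.4 to 45.3 CPM in cortex and 111 to 385 CPM in brainstem, with the lowest brainstem values, 111 and 175 CPM, in the 2 libraries rich in ribosomal RNA. Hbb-bs differed by -2.72, and by -3.01 without those 2.

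Nuclear genes of the respiratory chain were lower in cortex in 73 of 76 cases, 3 of them beyond 2-fold, and higher in 1, with a median of -0.72, and 7 were beyond 2-fold without the libraries rich in ribosomal RNA. Of the 76, 1 had passed the filter through cortex alone and 2 through brainstem alone. The median was -0.71 with relative log expression factors and -0.74 with library totals alone. Cytosolic ribosomal protein genes were lower in 64 of 79 cases, 1 beyond 2-fold, with a median of -0.45. Of the 79, 1 had passed the filter through cortex alone. Beside both lists, 42.2% of all genes were lower and 9.97% lower beyond 2-fold. Transcripts made inside mitochondria held 4.56% to 5.37% of gene counts in cortex and 5.32% to 6.18% in brainstem, a mean difference of -0.714 percentage points (two-sided exact permutation test, p = 0.00433, adjusted 0.00722 over 5 shares). As a share of all reads, those in no gene included, the difference was -0.462 points with an exact permutation adjusted p of 0.0649. Without the 4 libraries rich in cerebellar transcripts it was -0.805 points of gene counts with an exact permutation adjusted p of 0.0893, where the 56 splits allow no p below 0.0179. The highest level per kilobase in cortex was that of mt-Co1, at 11400 CPM per kilobase in cortex and 12900 in brainstem, followed by mt-Nd1. In brainstem Gm23935 was highest, at a mean of 42100 CPM per kilobase against 165 in cortex. After it came mt-Co1, mt-Nd1 and then Gm42418, at 9760 in brainstem and 138 in cortex.

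Of 15 retinoid genes 5 were higher, 2 beyond 2-fold, and 8 lower, 3 beyond 2-fold. Of all genes 40.6% were higher and 42.2% lower. Aldh1a1, which makes retinoic acid, ranged from 37.7 to 43.5 CPM in cortex and from 279 to 346 CPM in brainstem, a difference of -3 (SE 0.06), and Cyp26b1, which degrades it, differed by -2.18. Of 30 neuropeptide precursors 23 were tested, 9 being higher in cortex, near the share of all genes, and 13 lower. Beyond 2-fold 5 were higher and 7 lower, where 12% and 9.97% of all genes were. Of the 23, 1 had passed the filter through cortex alone and 4 through brainstem alone. Nppc (C-type natriuretic peptide) ranged from 2.29 to 3.17 CPM in cortex and from 9.41 to 11.9 CPM in brainstem. Meg3, an imprinted long noncoding RNA, was among the most abundant nuclear transcripts, at 6070 to 6730 CPM in cortex and 784 to 1370 CPM in brainstem, a difference of 2.66 (SE 0.13).

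Exons totalled a median of 4296 bases in genes higher in cortex beyond 2-fold and 3368 bases in genes lower in cortex, against 4148 bases in all genes tested. Protein-coding genes were 78.6% of those higher and 89.8% of those lower in cortex, against 89.2% of all. Gene bodies over 100 kb were 17.7% and 14.6%, against 14.2%.

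The region difference was also compared between the lines. The test of a region difference in the ataxin-3 line minus that in the knockout line called 0 of 16959 genes (0%) with edgeR, 1322 genes (7.8%) having an unadjusted p under 0.05, and 12 genes with DESeq2. Among the smallest p-values were those of Ano3 at -0.41 and Tmem88b at -0.35, both with an edgeR adjusted p of 0.53. Without brainstem ataxin-3 line wild type 3 the count was 445, against 0 with it.

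Wild-type hypothalamus was set beside both regions for the same genes. Of the 2034 genes higher in cortex beyond 2-fold, 1535 (75.5%) had a hypothalamus mean nearer to brainstem than to cortex on the log2(CPM + 0.1) scale, and of the 1690 lower, 895 (53%) did. Slc17a6, for example, had 258 to 387 CPM in hypothalamus, and Slc6a5 0.152 to 0.544 CPM.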

How the data were processed

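Polyadenylated RNA of mouse cortex, brainstem and hypothalamus was made into TruSeq Stranded mRNA libraries, per the labels' protocols. Reads were handled with cutadapt 1.2.1, TopHat2 2.0.9 and HTSeq 0.5.4p3 on GRCm38, per the submitters' processing notes, and the authors deposited raw counts per gene for each library. Each table held 38924 genes, of which 37607 matched the GENCODE annotation, and 5 lines of unassigned reads, which entered neither library sizes nor tests (27.0% to 42.0% of the 12 libraries' reads).

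The 12 wild-type cortex and brainstem libraries were fitted with edgeR 4.0.16 (limma 3.58.1, R 4.3.3) on TMM-scaled counts, with line and region as terms, after the tool's filter on low counts by group. The quasi-likelihood test gave p-values adjusted by Benjamini-Hochberg over 16959 genes, and "beyond 2-fold" is edgeR's test against a 2-fold difference at an adjusted p under 0.05. The standard error is the log2 fold change divided by the square root of F. The common biological coefficient of variation of the fit was 8.25%. Intervals and floors cover counting error only. The scripts were tested on simulated data. Shares of library reads were compared by a two-sided exact permutation test over 924 splits, or 210 and 56 without libraries that stood apart.

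Named genes were the 12 largest differences in each direction with a mean of at least 10 CPM in the higher region. From each list up to 6 members with the smallest p and up to 2 that did not pass were added. The hypocretin genes and their receptors and both members of 12 pairs of related genes were also named. So were up to 3 genes for the line difference and the highest levels per kilobase. Another 20 (among them Nrgn, Arc, Fos, Npas4, Mbp, Ttr, Pvalb, Sst, Meg3 and Kcnh4), and Cbln3, Hoxb1 and Hoxc8, were named after their values were seen. A few of the genes so chosen are not reported here. The members and lists were chosen with earlier results of these data known. Alternatives were DESeq2 1.42.0, other scalings and filters, voom weights, a replicate block, each line alone and leaving out libraries, 2 sets of which were chosen after seeing the data.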

Additional observations from a re-analysis of the deposited data

Results flagged for a closer look

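In 28 of 276 groups of 6 libraries checked, the highest or lowest library stood apart from the other 5, where chance gives about 1 in 20 of independent groups. The genes share their libraries and 20 of them were named after their values were seen, so the 2 shares cannot be set against each other. Brainstem ataxin-3 line wild type 3 stood apart as the highest for 5 cortical genes. It had 0.933 CPM of Tbr1, 18.8 CPM of Ddn, 1.92 CPM of Kcnh3, 3.87 CPM of Icam5 and 135 CPM of Camk2a, where the other brainstem libraries had at most 0.429, 2.77, 0.943, 2.54 and 99.1 CPM of these genes. It stood apart as the lowest for 6 genes, with 20.4 CPM of Ddc, 8.89 CPM of Slc6a4, 12.2 CPM of Calca, 3.57 CPM of Adra1d, 6.06 CPM of Folr1 and 1120 CPM of Ttr.

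Cortex knockout line wild type 3 was the highest for genes of ventral forebrain GABAergic neurons, with 26.5 CPM of Dlx6os1, 45.3 CPM of Dlx1, 5.78 CPM of Dlx5, 9.09 CPM of Dlx2 and 481 CPM of Gad1. The other cortex libraries had at most 16.8, 20.9, 3.99, 4.77 and 372 CPM of these genes. The same library was the lowest for Npas2, at 42.8 CPM, and Sv2b, at 614 CPM.

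Brainstem ataxin-3 line wild type 1 had the highest Bcl11b, at 11.1 CPM, and mt-Co1, at 21400 CPM, and the lowest Cplx2, at 339 CPM. Brainstem ataxin-3 line wild type 2 had the highest Enpp6, at 29.4 CPM, and Gm42418, at 89500 CPM. Brainstem knockout line wild type 3 had the highest Arc, at 39.8 CPM, and brainstem knockout line wild type 2 the lowest Atp2b2, at 501 CPM. Cortex ataxin-3 line wild type 1 had the lowest Gabra4, at 131 CPM, and cortex ataxin-3 line wild type 2 the highest Fat2, at 9.58 CPM, and En2, at 2.13 CPM.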

How the results depend on the processing

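Genes higher in cortex numbered 5967 to 7555 and lower 6154 to 7742 over all alternatives, and beyond 2-fold 1599 to 2340 and 1285 to 1945. Leaving out 1 library gave 6753 to 7005 and 7039 to 7182, and beyond 2-fold 1988 to 2121 and 1670 to 1734. The mutant counts beyond 2-fold were 1988 to 2005 higher and 1581 to 1634 lower. The count for region by line, 0 with edgeR, was 12 with DESeq2, 1 with no filter, 23 without the 2 libraries rich in ribosomal RNA, 74 without the 4 rich in cerebellar transcripts, and 0 to 445 with 1 library left out, 445 being without brainstem ataxin-3 line wild type 3. The cause was not tested. Against the other denominator, the no-feature share differed by 5.81 points (exact permutation test, adjusted p = 0.0649) and the mitochondrial share by -0.462 points (exact permutation test, adjusted p = 0.0649). Without the 4 libraries rich in cerebellar transcripts these shares differed by 2.36 and -0.805 points and no longer passed. The share of ambiguous reads, -0.0248 points and not passing, was -0.0737 and passed without the 2 libraries rich in ribosomal RNA, and was 0.0292 without the 4.

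Of 3868 values of 155 named genes under 25 alternatives, 3823 kept their direction and side of the threshold, 9 lost the call, 29 gained it and 7 changed sign. Those 7 were Neurod1 at 0.50 without the libraries rich in cerebellar transcripts, Pmch at 0.02 in the knockout line alone, and Jun at 0.12 in the ataxin-3 line alone, 0.04 without the libraries rich in cerebellar transcripts, and -0.08 to 0.02 with 1 library left out, above 0 in 3 of these. Replicate numbers did not pair the libraries of the ataxin-3 line, with correlations of -0.029 to -0.011. In the knockout line the correlations were 0.02 to 0.054 and every library correlated best with its own number. Whether those libraries are paired was not tested. With the replicate block 6777 genes were higher and 7040 lower, and 2021 and 1673 beyond 2-fold.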

Other observations

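Reads that no gene received differed between the regions. Reads outside annotated genes were 12.7% to 13.3% of a cortex library and 6.38% to 15.2% of a brainstem library, a mean difference of 4.47 points (two-sided exact permutation test, p = 0.0152, adjusted 0.019 over 5 shares). The 2 brainstem libraries rich in ribosomal RNA held 10.1% and 15.2%, and without them the difference was 6.47 points (exact permutation test, adjusted p = 0.00595). Without the 4 libraries rich in cerebellar transcripts it was 2.36 points (exact permutation test, adjusted p = 0.335), and relative to gene counts 5.81 points (exact permutation test, adjusted p = 0.0649). Reads that aligned to several places were 16.1% to 17.1% in cortex and 20.0% to 26.4% in brainstem, a difference of -5.2 points (two-sided exact permutation test, adjusted p = 0.0054), -4.1 without the 2 libraries and -6.4 without the 4. Globin genes held 0.00556% to 0.00786% of gene counts in cortex and 0.0209% to 0.0719% in brainstem, a difference of -0.0416 points (two-sided exact permutation test, adjusted p = 0.0054), -0.0532 without the 2 libraries and -0.03 without the 4.

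Markers of neighbouring tissue were also counted. Of all genes 40.6% were higher and 42.2% lower, with 12% and 9.97% beyond 2-fold. Of 15 striatal genes, 10 were higher in cortex, 8 beyond 2-fold, and 4 lower, and their summed level was 406.5 to 657.2 CPM in cortex and 337.3 to 380.4 CPM in brainstem. Of the 15, 2 had passed the filter through cortex alone. Of 12 meningeal fibroblast genes, 10 were lower in cortex, 3 beyond 2-fold, at 513.5 to 633.9 CPM in cortex and 1135 to 1460 CPM in brainstem. Of 13 hippocampal genes 6 were higher and 6 lower, with 4 and 4 beyond 2-fold, and 1 had passed the filter through cortex alone. Of 10 thalamic genes tested 7 were lower, 3 beyond 2-fold, and 2 higher. Of 15 hypothalamic genes 7 were tested and 6 were lower, 4 beyond 2-fold, 3 of the 7 having passed the filter through brainstem alone. Eph receptors and ephrins, which guide axons, were higher in cortex in 12 of 22 cases, 7 beyond 2-fold, and lower in 8, 1 beyond 2-fold, where 40.6% of all genes were higher and 42.2% lower. Of the 22, 2 had passed the filter through brainstem alone.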
